A study of Mus musculus with 6 samples.

Results

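The mitochondrial ribosomal protein genes were taken as every gene of the count table whose symbol begins with Mrpl or Mrps followed by a digit. The rule found 77 of the 24063 genes listed, and 75 of them passed the filter on low counts, which left 13572 genes for testing. It used symbols and no measured value. RNA was sequenced from diethylnitrosamine (DEN)-induced liver tumors of male C57BL/6 mice, with 3 libraries from WT (NR2E3+/+) animals and 3 from knockout animals without the orphan nuclear receptor Nr2e3 (Nr2e3-/-). Both groups share the carcinogen, given at 25 mg per kg to pups 15 days old, and the 24-week collection. How the knockout allele was made is not given in the sources used here. No library came from untreated liver, so the comparison is between tumors of different genotype. The labels number the libraries within each group but do not say whether each is a different animal, so the p-values measure the spread between these libraries.

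Mitochondria carry their own ribosome, which translates the few membrane proteins of the respiratory chain that the mitochondrial genome still encodes. Both of its rRNAs come from that genome, while all of its proteins are encoded in the nucleus, made in the cytosol and imported. Many of these proteins descend from bacterial ribosomal proteins and hold the rRNA core together, and others were added during the evolution of mitochondria and cover the surface. Hepatocytes, rich in mitochondria, depend on this ribosome for oxidative phosphorylation. Of the 77 members, 30 encode large subunit proteins with a bacterial homologue, 20 large subunit proteins particular to mitochondria, 16 small subunit proteins with a bacterial homologue and 10 small subunit proteins particular to mitochondria. Mrps30 and Mrps18a are named as small subunit proteins but sit in the large subunit, and were counted there. Mrps36 is no ribosomal subunit at all but a component of the alpha-ketoglutarate dehydrogenase complex.

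The members lie on 17 chromosomes, and what many of them share outside the coding sequence is the start of the gene. RefSeq promoters (GRCm38.p6, 250 bases before to 50 bases after each listed start) were at hand for 68 of the 77 members. The letters CCGGAAG, the core bound by ETS factors such as GABP, stood on either strand in the promoters of 25 of the 68 members (36.8%), against 9.9% of 27025 genes with a promoter and 18.8% of the 10177 tested genes with one. AAGATGGC, the YY1 core, was found in 12 members (17.6%), against 3.2% of all and 5.0% of tested genes. GCATGCGC, the core of NRF1, was found in 8 members (11.8%), against 3.0% and 5.7%. By contrast the GC box GGGCGG, read by Sp1, was in 34 of the 68 members, and in 38.2% of all genes and 66.2% of tested genes. CCAAT (39.7%, against 42.6% of tested genes), the E-box CACGTG (7.4%, against 11.6%) and TATAAA (7.4%, against 9.3%) were no more frequent in the members. ETS cores of opposite strands can overlap, as can NRF1 cores, and AAGATGGC contains ATG and may hold a start codon. A match describes letters and not a bound site.

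Of the 55 windows of 30 bases found around an ETS, YY1 or NRF1 core, a few are printed below to show what each core looks like. They were chosen with the fold changes known, from members above and below WT, and other members and other cores of the same members are not shown. They have the core in capitals, each sequence read 5′ to 3′ on the gene's strand.
Mrps18a, ETS core 26 bases before the start, chr17:46110967-46110996, plus strand: acacccctgctCCGGAAGcggaagtgcaca
Mrps18a, YY1 core 11 bases after the start, chr17:46111004-46111033, plus strand: aggtgcgttccAAGATGGCggccctcaggg
Mrps18b, NRF1 core 28 bases after the start, chr17:35916394-35916423, minus strand: gcgtgtcccgaGCATGCGCagtcgctcttc
Mrps7, YY1 core 18 bases after the start, chr11:115604147-115604176, plus strand: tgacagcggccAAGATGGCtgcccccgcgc
Mrpl21, ETS core on the opposite strand 7 bases after the start, chr19:3283038-3283067, plus strand: cgctgcttccgCTTCCGGttgggactgtgg
Mrps22, ETS core 11 bases before the start, chr9:98601672-98601701, minus strand: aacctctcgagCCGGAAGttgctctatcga
Mrps12, ETS core 1 base after the start, chr7:28741802-28741831, minus strand: aaggaggaaccCCGGAAGgggctggaggta
Mrps26, ETS core on the opposite strand 14 bases before the start, chr2:130563732-130563761, plus strand: ctccgcggccaCTTCCGGgccgggcgcagg
Mrpl27, ETS core 55 bases before the start, chr11:94653725-94653754, plus strand: gtccgcaagacCCGGAAGtagatctatccc
The windows of Mrps18a, Mrps18b, Mrps7, Mrpl21, Mrps22 and Mrps12 belong to members whose mean was higher in Nr2e3-/- tumors, and those of Mrps26 and Mrpl27 to members whose mean was lower. Both signs are there by choice, and the log2 fold changes of Mrps26 and Mrpl27 were smaller in size than their standard errors. Mrps9 and Mrpl2, which had the lowest log2 fold changes of the members, had no ETS core in their promoters. Among the tested members with a promoter, the median log2 fold change was 0.16 for the 25 with an ETS core and 0.11 for the 41 without it. It was 0.19 for the 12 with a YY1 core and 0.11 for the 54 without. It was 0.10 for the 8 with an NRF1 core and 0.14 for the 58 without, and 0.08 for the 32 with a GC box and 0.15 for the 34 without.

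Depth was 25250090 to 28690279 counts in WT libraries and 15376261 to 28336305 in Nr2e3-/- libraries. Nr2e3-/- replicate 1 had the fewest counts and stood apart from the other Nr2e3-/- libraries, with a median absolute log2 distance of 0.337 per gene against 0.263 and 0.303 for replicates 3 and 2, and 0.159 to 0.168 within WT. Counts of called members are given with and without it. Nr2e3 itself had 0 counts in every library, where up to 3 counts could have been missed, so its loss could not be checked. Markers fixed for hepatocytes were abundant in every library, with a summed level of 131730 to 161210 normalized CPM (a gene's counts relative to the scaled library size) over 8 genes in WT and 119190 to 139190 in Nr2e3-/- tumors. These markers did not go one way, as 5 had a positive and 3 a negative log2 fold change, from -0.27 to 1.30. In bulk tumor, fewer cells of a type and less RNA per cell cannot be told apart.

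In Nr2e3-/- tumors the members leaned upward together by a small amount, and no single member reached an adjusted p-value under 0.05. Of the 75 tested members, 58 had a positive and 17 a negative log2 fold change (the log2 ratio of Nr2e3-/- over WT). Their median log2 fold change was 0.12, a ratio of 1.09, against 0.01 over all 13572 genes tested. The smallest adjusted p of a member was 0.14 (Mrps6, edgeR's quasi-likelihood test, two-sided, Benjamini-Hochberg adjustment over all genes tested), while 0.0958% of all genes passed. At an unadjusted p under 0.05, 13 members (17.3%) were higher, where 11.8% of all tested genes were, and 0 were lower, where 9.72% were. The higher share of members did not hold throughout: it was 6.67% against 8.12% of all genes with upper quartile normalization, 4.0% against 7.01% with library totals alone, 6.67% against 8.97% with the replicate number as a block, and below that of all genes in 5 of the 6 fits that left out a library (all but the one without Nr2e3-/- replicate 2, 24% against 9.54%). DESeq2 called 0 members after adjustment and put 9 (11.7%) higher at an unadjusted p under 0.05, where 9.30% of all genes were, and it called 4.87% of the genes for which it gave an adjusted p higher. All 3 Nr2e3-/- libraries lay above all 3 WT libraries for 23 members (30.7%), where 13.9% of all genes did so, and below them for 1 member, where 12.9% did so. The members were also measured precisely. The median standard error (SE) was 0.12 on the log2 scale against 0.19 over all genes, the 95% intervals of all 75 lay within a 2-fold change either way, and those of 64 lay within 1.5-fold.

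**Figure D1:**
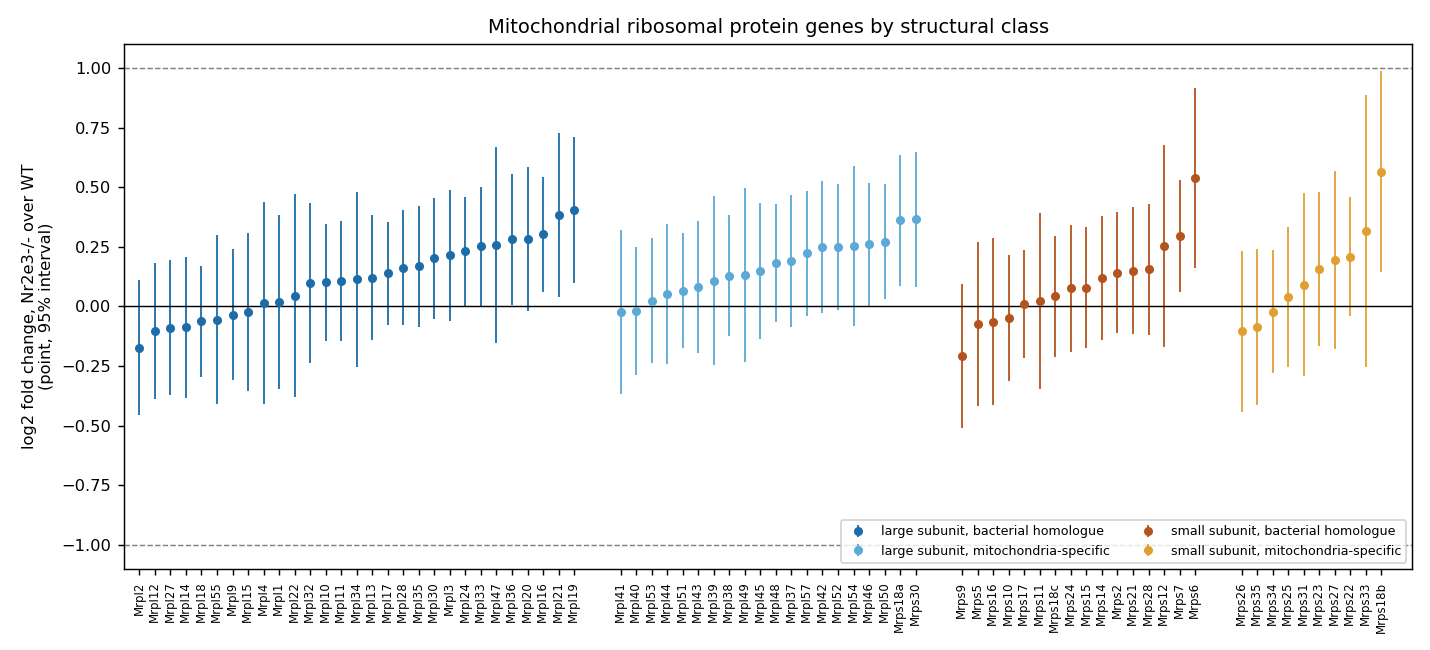
Log2 fold change of each of the 75 tested members, Nr2e3-/- over WT, with its 95% interval, in 4 structural classes ordered by fold change (dashed lines: 2-fold either way). 58 points lie above 0 and 17 below, from -0.21 (Mrps9) to 0.57 (Mrps18b), and no interval crosses a dashed line.

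The shift was carried by 2 of the 3 Nr2e3-/- libraries. Summed over the 77 members, the normalized level (library sizes scaled by the TMM method) was 1816, 1819.7 and 1796 CPM in WT replicates 1 to 3, and 2019.7, 1808 and 2084 CPM in Nr2e3-/- replicates 1 to 3. Nr2e3-/- replicate 2 fell among the WT libraries, and the other Nr2e3-/- libraries lay above all WT libraries. The means (n = 3) were 1811 CPM with an SD of 12.9 for WT and 1971 CPM with an SD of 145 for Nr2e3-/- tumors, a ratio of 1.09. Gene by gene, the median difference from the WT mean (log2 CPM) was 0.17 in Nr2e3-/- replicate 1, -0.0012 in replicate 2 and 0.18 in replicate 3. In replicate 1, 53 of the 75 members (70.7%) were above all WT libraries and 2 below, where 32.7% and 33.1% of all tested genes were. In replicate 3, 51 members (68.0%) were above and 5 below, against 37.5% and 39.6% of all genes. In replicate 2, 27 members (36.0%) were above and 28 (37.3%) below, near the 39.3% and 38.2% of all genes.

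**Figure D2:**
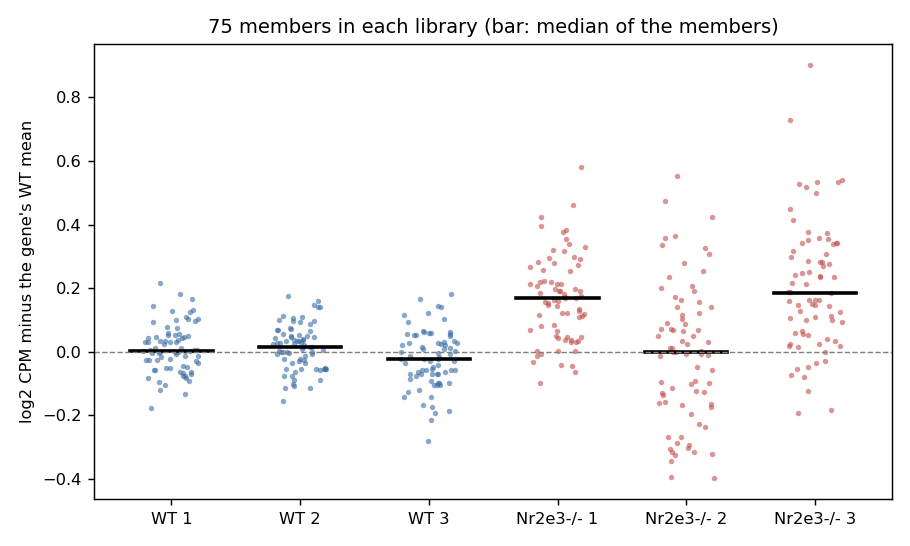
Difference of each of the 75 tested members from its own WT mean in each library (log2 CPM, prior count 2), with the median of the members as a bar. The medians of Nr2e3-/- replicates 1 and 3 are 0.17 and 0.18, while that of replicate 2 is at the WT level with members spread to both sides.

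Nr2e3-/- replicate 2 was at the WT level in the sum, with single members to either side. Its lowest members against the WT mean were Mrpl4 (-0.40), Mrpl2 (-0.40), Mrpl12 (-0.34), Mrps5 (-0.32) and Mrps9 (-0.32 on the log2 scale), named after their values were seen. Its highest were Mrps6 (0.55), Mrpl19 (0.47), Mrps18b (0.42), Mrpl52 (0.36) and Mrpl54 (0.36). Of these, Mrps6, Mrpl19, Mrps18b and Mrpl52 were also above all WT libraries in both other Nr2e3-/- libraries, whereas Mrpl4 and Mrpl12 were near or above the WT mean there. Summed levels of bile duct, neutrophil and macrophage markers were highest in this library, while the other marker lists did not set it apart. The summed level of 5 bile duct markers was 418 CPM in replicate 2 against 67.3 and 180 CPM in replicates 1 and 3 and 55.2 to 117 CPM in WT. These markers did not go one way. Of the 4 that were tested, 2 had a positive and 2 a negative log2 fold change, from -0.29 to 1.68, so the sum may rest on few genes. That of the neutrophil genes S100a8 and S100a9 was 18.3 CPM against 1.99 and 11.5 CPM, and 1.35 to 2.57 CPM in WT. That of 3 macrophage markers was 300.1 CPM against 143 and 172 CPM, and 149 to 190 CPM in WT. Stromal markers (4 genes) were at 137 CPM in replicate 2 and 136 CPM in replicate 3, against 212 to 238 CPM in the other libraries. The list for T and B cells (4 genes) spanned 1.57 to 3.92 CPM in WT and 0.794 to 2.34 CPM in Nr2e3-/- tumors. For red cells (3 genes) it was 87.4 to 120 and 145 to 159 CPM. Endothelial markers (4 genes) had means of 246 and 217 CPM, with 228, 232 and 191 CPM in Nr2e3-/- replicates 1 to 3. Of these 4, 2 had a positive and 2 a negative log2 fold change. No marker found in the table was at 0 in all libraries, and their part in the members' values was not tested.

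Without Nr2e3-/- replicate 1, the library that stands apart, 8 members reached an adjusted p under 0.05, all higher (Mrpl19, Mrpl50, Mrpl52, Mrps18a, Mrps18b, Mrps30, Mrps6 and Mrps7), which is 10.7% of the 75, and 12.2% of all genes tested did so in that fit. The share among members was thus not above that of all genes. Their median log2 fold change was 0.10 in that fit. Without replicate 2 it was 0.19, with 69 members positive and 18 at an unadjusted p under 0.05, and without replicate 3 it was 0.10, with 54 positive and 2 at an unadjusted p under 0.05. With limma-voom, which gives each library a weight, 6 members were higher at an adjusted p under 0.05 (Mrpl19, Mrps18a, Mrps18b, Mrps30, Mrps6 and Mrps7), against 9.48% of all genes. All 6 were among the 8 above.

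The large subunit members leaned upward a little more than the small subunit members, though the difference was not tested. For the 49 tested large subunit genes the median log2 fold change was 0.13, with 39 positive and 10 (20.4%) higher at an unadjusted p under 0.05, beside 11.8% of all genes. For the 26 small subunit genes it was 0.08, with 19 positive and 3 (11.5%) higher, a share near that of all genes. Summed levels were 1.09 times as high for the large subunit (1271 ± 4.09 CPM in WT against 1386 ± 102 for Nr2e3-/-, SD, n = 3) and 1.08 times for the small subunit (539 ± 9.05 and 584 ± 43.1). In both the sum of Nr2e3-/- replicate 2 (1273 and 535 CPM) lay within the range of WT.

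Among large subunit proteins with a bacterial homologue, 29 were tested, with a median log2 fold change of 0.11, 21 positive and 6 at an unadjusted p under 0.05. Mrpl19, on chromosome 6 (81957851 to 81965958, minus strand), stood highest. It was at 14.9, 15.5 and 14.7 CPM in WT and at 16.9, 20.9 and 21.7 CPM in Nr2e3-/- tumors. The groups did not overlap, and Nr2e3-/- replicate 1 was nearest to WT. Its log2 ratio was 0.40 (SE 0.13, edgeR adjusted p = 0.158), and 36% of its exon bases overlap Gcfc2, so reads of the genes may be mixed. Mrpl21 was at 7.60, 8.69 and 8.11 CPM in WT and at 10.7, 9.36 and 11.8 CPM in Nr2e3-/- tumors, which is a log2 ratio of 0.38 (SE 0.15). Mrpl16, whose bacterial counterpart lies near the peptidyl transferase centre, was at 33.6, 30.2 and 28.5 CPM in WT and at 37.6, 37.2 and 38.9 CPM in Nr2e3-/- tumors, with a log2 ratio of 0.30 (SE 0.10). For both genes every Nr2e3-/- library was above every WT library, Mrpl16 being the more even of the pair within Nr2e3-/- tumors.

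At the other end of this class were Mrpl2, Mrpl12 and Mrpl27. Mrpl2, a core protein whose bacterial counterpart is needed for peptide bond formation, was the only member whose Nr2e3-/- libraries all lay below WT. It was at 34.3, 34.6 and 35.7 CPM in WT and at 33.4, 26.5 and 33.0 CPM in Nr2e3-/- tumors. The gap was narrow in replicates 1 and 3 and wide in replicate 2, without which the log2 ratio was -0.07. The log2 ratio of -0.17 (SE 0.12) had an adjusted p of 0.424 from edgeR. Mrpl12, the stalk protein that recruits translation factors and is present in several copies per ribosome, was at 69.7, 68.6 and 71.2 CPM in WT and at 69.5, 54.9 and 70.7 CPM in Nr2e3-/- tumors. Only replicate 2 differed from WT, and without it the log2 fold change turned from -0.10 to 0.01. Mrpl27 was at 18.0, 18.4 and 16.5 CPM in WT and at 18.1, 15 and 16.8 CPM in Nr2e3-/- tumors, and again replicate 2 was the lowest library.

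**Figure D3:**
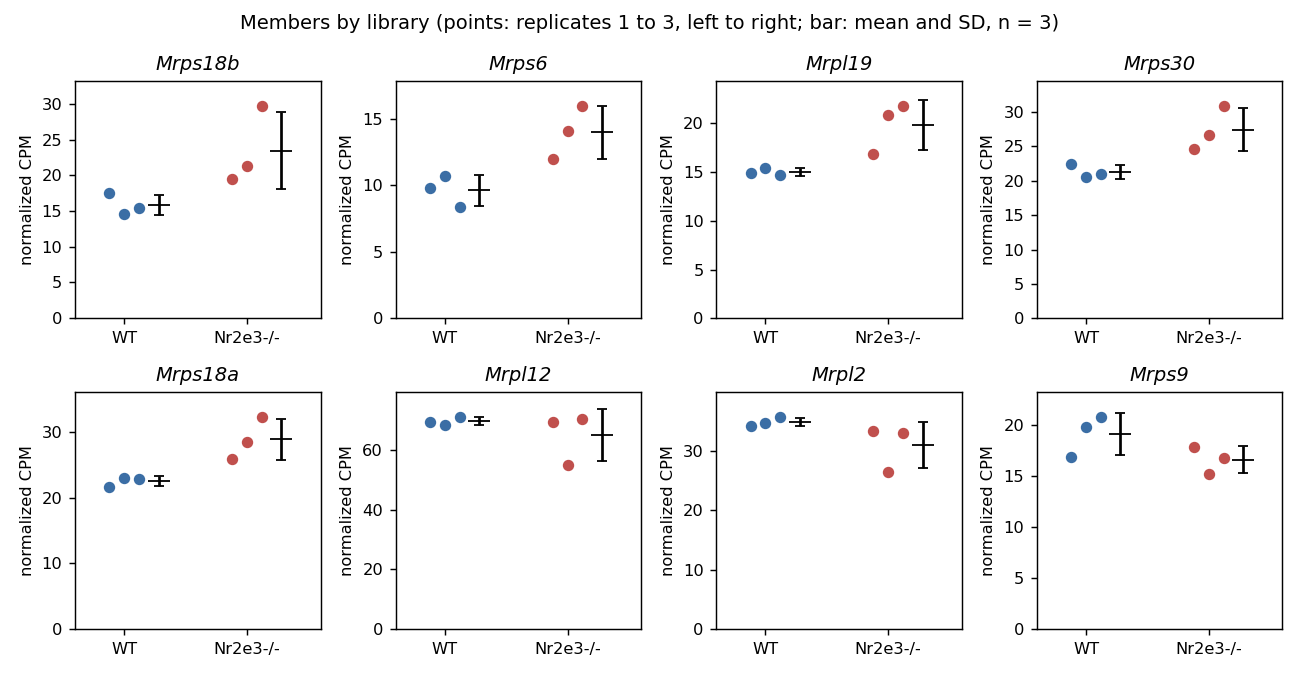
Normalized CPM of 8 members in each library, WT in blue and Nr2e3-/- in red, with the mean and SD of each group (n = 3). Mrps18b, Mrps6, Mrpl19, Mrps30 and Mrps18a are higher in every Nr2e3-/- library than in any WT library, whereas Mrpl12 and Mrpl2 are lowest in Nr2e3-/- replicate 2.

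The large subunit proteins particular to mitochondria had the highest median of the 4 classes, 0.17 on the log2 scale over 20 genes, with 18 positive. Of these 20, 4 (20%) were higher and 0 lower at an unadjusted p under 0.05, beside 11.8% and 9.72% of all genes. Mrps30 (chromosome 13, 118378381 to 118387252, minus strand) was at 22.4, 20.5 and 20.9 CPM in WT and at 24.7, 26.7 and 30.8 CPM in Nr2e3-/- tumors. The log2 ratio was 0.36 (SE 0.12, edgeR adjusted p = 0.164). Mrps18a was at 21.7, 23.1 and 22.9 CPM in WT and at 26.0, 28.5 and 32.3 CPM in Nr2e3-/- tumors, with a log2 ratio of 0.36 (SE 0.12, edgeR adjusted p = 0.161). Both genes, which share the peculiarity of a small subunit name, were thus above WT in every Nr2e3-/- library and highest in replicate 3. Mrpl50 was at 59.8, 62.6 and 56.8 CPM in WT and at 65.9, 73.8 and 76.5 CPM in Nr2e3-/- tumors, with a log2 ratio of 0.27 (SE 0.10). The lowest of the class, Mrpl41 (-0.02), Mrpl40 (-0.02) and Mrpl53 (0.02), differed from WT by less than their SEs of 0.15, 0.11 and 0.11.

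Small subunit proteins with a bacterial homologue showed a median log2 fold change of 0.08 over 16 genes, with 12 positive. Mrps6 and Mrps7 (12.5%) were higher and 0 lower at an unadjusted p under 0.05, beside 11.8% and 9.72% of all genes. Mrps6 (chromosome 16, 92058270 to 92112227, plus strand) was at 9.83, 10.7 and 8.39 CPM in WT and at 12, 14.1 and 16.0 CPM in Nr2e3-/- tumors. Every Nr2e3-/- library was above WT, and the log2 ratio was 0.54 (SE 0.16, 95% interval 0.16 to 0.92, edgeR adjusted p = 0.14). Slc5a3 and Gm49711 together overlap 19.9% of its exon bases. Mrps7, a primary rRNA-binding protein of the small subunit's head, was at 51.1, 51.2 and 47.9 CPM in WT and at 58.1, 59.6 and 66.7 CPM in Nr2e3-/- tumors, with a log2 ratio of 0.30 (SE 0.10, edgeR adjusted p = 0.167). Mrps12, whose bacterial counterpart affects the accuracy of decoding, had a log2 ratio of 0.25 (SE 0.18) that was 0.07 without replicate 1 and 0.16 without WT replicate 3. It was at 23.0, 20.8 and 18.0 CPM in WT and at 30.7, 20.4 and 22.7 CPM in Nr2e3-/- tumors, and the groups overlapped. Mrps9 had the lowest value of all members, a log2 ratio of -0.21 (SE 0.13, edgeR adjusted p = 0.378). It was at 16.9, 19.8 and 20.8 CPM in WT and at 17.8, 15.2 and 16.8 CPM in Nr2e3-/- tumors, and the groups overlapped through WT replicate 1. Mrps5 (-0.07, SE 0.15) and Mrps16 (-0.06, SE 0.15) followed.

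Small subunit proteins particular to mitochondria showed a median log2 fold change of 0.12 over 10 genes, with 7 positive. Of these 10, 1 gene (10%) was higher and 0 lower at an unadjusted p under 0.05, beside 11.8% and 9.72% of all genes. That gene, Mrps18b (chromosome 17, 35910379 to 35916389, minus strand), had the highest log2 fold change of all members. It was at 17.5, 14.6 and 15.4 CPM in WT and at 19.5, 21.2 and 29.6 CPM in Nr2e3-/- tumors. The groups did not overlap, but replicate 3 alone was far above the rest, and without it the log2 ratio was 0.36. The log2 ratio was 0.57 (SE 0.18, 95% interval 0.14 to 0.99, edgeR adjusted p = 0.155). Of the 50-base stretches of its longest coding transcript, 30.9% also occur in annotated transcripts of other loci. Gm16279 overlaps 30.5% of its exon bases, so its count is uncertain on both grounds. Mrps33 (0.32, SE 0.24, and 0.18 without WT replicate 3) was the least abundant tested member, at 2.15, 2.27 and 1.63 CPM in WT and at 2.78, 2.04 and 2.76 CPM in Nr2e3-/- tumors. Mrps22 was at 21.4, 21.4 and 21.5 CPM in WT and at 25, 22.8 and 26.6 CPM in Nr2e3-/- tumors, with a log2 ratio of 0.21 (SE 0.11) and no overlap. Mrps26 (-0.10, SE 0.14), Mrps35 (-0.08, SE 0.14) and Mrps34 (-0.02, SE 0.11) were the lowest of the class.

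The S18 family shows members of common descent side by side. Mammals have 3 such paralogues, of which Mrps18c occupies the place of the bacterial protein, Mrps18b a site of its own in the small subunit and Mrps18a a site in the large subunit. Mrps18b and Mrps18a had the log2 fold changes of 0.57 and 0.36 given above, and Mrps18c that of 0.04 (SE 0.11, 95% interval -0.21 to 0.30). Mrps18c was at 19.0, 20.3 and 20.9 CPM in WT and at 21.8, 19.3 and 21.0 CPM in Nr2e3-/- tumors, where the groups overlapped. The differences between the paralogues were not tested. The count of Mrps18c is uncertain as well, since Gm43511 overlaps 23.2% of its exon bases and 13.1% of its 50-base stretches occur at other loci.

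The members Mrpl23 and Mrps36 did not pass the filter. Mrpl23 had 6, 5 and 1 counts in WT and 2, 2 and 4 in Nr2e3-/- libraries, and Mrps36 had 8, 7 and 11 counts in WT and 6, 2 and 7 in Nr2e3-/- libraries. Both were near the floor in every library, and no fold is given. Their transcripts share 66.7% and 36.2% of their 50-base stretches with other loci, among them the pseudogene Mrpl23-ps1 and 7 pseudogenes resembling Mrps36, and how the counting treated such reads is not given in the sources used here. Of the tested members, 16 shared at least 5% of their 50-base stretches with other loci and showed a median of 0.04 on the log2 scale, and the 59 that shared less had 0.13. Exons overlapped by another gene over at least 10% of their length were found in 18 members, with a median of 0.09 and 6 (33.3%) higher at an unadjusted p under 0.05. The other 57 had a median of 0.13 and 7 (12.3%) higher. The 45 members free of both limits had a median of 0.13, with 6 (13.3%) higher, near the 11.8% of all genes. The members with overlapped exons thus held 6 of the 13 counted as higher, and the part of the overlapping genes in this was not tested. Among other members named above, the overlapped part of the exons was 88.0% for Mrpl53, 77.8% for Mrps34, 13.1% for Mrpl12 and 11.9% for Mrps7. Shared 50-base stretches made up 35.4% for Mrpl27, 21.0% for Mrps33, 13.8% for Mrpl41, 12.4% for Mrps5, 9.6% for Mrpl21 and 5.4% for Mrps26.

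Levels of the members can be compared only per length, here as normalized CPM per kilobase of the principal transcript (GENCODE vM21, GRCm38). In WT tumors the tested members had a median level of 15 CPM per kilobase, with the middle 50% between 7.36 and 25.9. Of the 75, 42 (56%) were within 2-fold of that median, whereas 32.4% of all tested genes were within 2-fold of theirs, 4.86 CPM per kilobase. The median level of 74 cytosolic ribosomal protein genes was 17.0 CPM per kilobase in WT. Stretches that these 74 genes share with other loci were not measured. How far their counts are affected is not known, so their level cannot be set against that of the members. Mrpl52 stood highest at 62.1 ± 2.15 CPM per kilobase in WT (SD, n = 3), followed by Mrpl12 at 53.1 ± 0.962 and Mrpl14 at 47.5 ± 1.73, and the WT libraries of these genes did not overlap. The lowest were Mrps33 at 1.82 ± 0.306, Mrpl47 at 2.93 ± 0.317 and Mrpl19 at 3.0 ± 0.0799 CPM per kilobase, and the last pair lay within each other's spread. In Nr2e3-/- tumors the median level was 16.8 CPM per kilobase. The order depends on the length used. By the union of all annotated exons, Mrpl12 and Mrpl14 took ranks 1 and 2, Mrpl52 rank 8, and Mrpl33 went from rank 6 to rank 69, while Mrps33 stayed at rank 75.

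**Figure D4:**
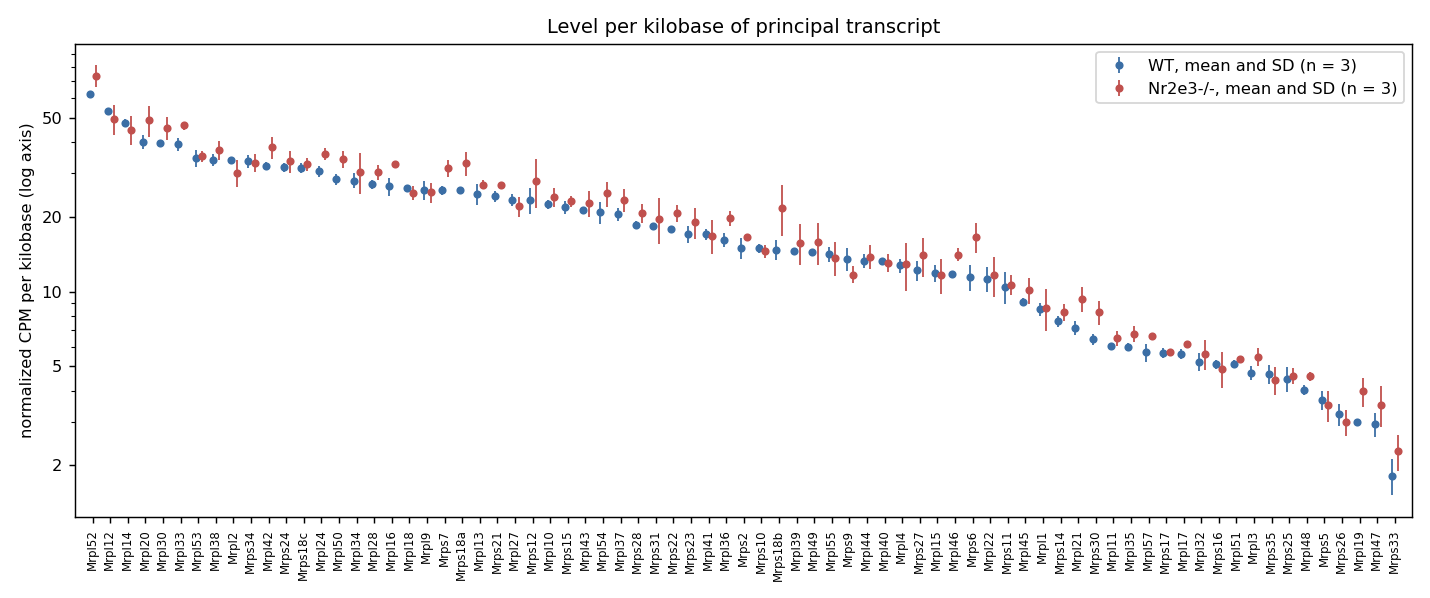
Normalized CPM per kilobase of principal transcript for the 75 tested members on a log axis, ordered by the WT mean, with mean and SD per group (n = 3). Levels run from 62.1 (Mrpl52) to 1.82 (Mrps33) in WT, and 42 of the 75 members lie within 2-fold of the median of 15.

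Transcript length moved slightly with fold change. The principal transcripts of 50 of the 75 members were in the shortest 25% of tested genes (at most 1874 bases). All tested genes of that length class showed a median log2 fold change of 0.03 and the members in it 0.12. In the longest 25% (4448 bases or more) all genes had -0.04 and the 5 members in it 0.04. In each of the 4 length classes the members' median lay above that of all genes.

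Some members begin close to another gene. A protein-coding neighbour transcribed the other way began at most 1000 bases upstream of 18 of the 77 members (23.4%). The share was 6.8% of 21951 protein-coding genes, expressed here or not, and was not measured among the tested genes alone. Neighbours whose first parts overlap were not counted, such as the members Mrpl46 and Mrps11, which overlap each other on opposite strands. In 17 such pairs both genes were tested, 11 pairs had the same sign, and 0 neighbours had an unadjusted p under 0.05 in either direction by edgeR. The neighbours' median log2 fold change was 0.09, and that of the members in these pairs was 0.10. Mrps18b, the member with the highest fold change, begins 45 bases from Ppp1r10, which had a log2 ratio of -0.41 (SE 0.23). Mrps12 begins 172 bases from Sars2, the mitochondrial seryl-tRNA synthetase gene, which had -0.07 (SE 0.16) against 0.25 for Mrps12.

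Other genes of the pathway came from lists written with earlier results of these data known, and differences between these lists and the members were not tested. Of their 236 tested genes, 0 had an adjusted p under 0.05 by edgeR, and 30 had an unadjusted p under 0.05. In that fit 11.8% of all tested genes were higher and 9.72% lower at an unadjusted p under 0.05. DESeq2 called 4 of 237, all higher (Ddx28, Ears2, Rpl27a and Tars2), beside 4.87% of all genes higher. Limma-voom called 16 of 236 higher and 1 lower, beside 9.48% of all genes higher. With edgeR without Nr2e3-/- replicate 1, 22 of 238 were called higher and 2 lower, beside 12.2% of all genes higher. Of the subunits that the symbol rule misses, Dap3, Ptcd3, Chchd1, Aurkaip1 and Gadd45gip1 had log2 fold changes of 0.03, 0.22, 0.08, 0.02 and 0.06. Their median was 0.06, and none had an unadjusted p under 0.05. Ict1, annotated as the large subunit gene Mrpl58, is missed by the rule too, and its values are not given here. Ptcd3, a small subunit protein that binds rRNA, was at 32.8, 29.9 and 32.8 CPM in WT and at 40.8, 33.7 and 36.6 CPM in Nr2e3-/- tumors. Among 29 assembly factors the median was 0.06, with 6 (20.7%) higher and 0 lower at an unadjusted p under 0.05. Ddx28, an RNA helicase of large subunit assembly, was at 12.8, 12.5 and 11.1 CPM in WT and at 14.2, 27.2 and 30.5 CPM in Nr2e3-/- tumors (log2 fold change 0.98, SE 0.27, edgeR adjusted p = 0.13). Without replicate 1 it was 1.25 (edgeR adjusted p = 0.00242), and DESeq2 gave an adjusted p of 0.0152. It was high in replicates 2 and 3 and close to WT in replicate 1, unlike the members' sum.

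Translation factors (16 genes) showed a median log2 fold change of 0.04. At an unadjusted p under 0.05, 2 (12.5%) were higher and 0 lower, beside 11.8% and 9.72% of all genes. The release factor gene Mtrf1l was at 5.41, 4.94 and 4.65 CPM in WT and at 7.81, 6.31 and 6.65 CPM in Nr2e3-/- tumors. The 20 mitochondrial aminoacyl-tRNA synthetases had a median of 0.09, with 5 (25%) higher and 0 lower. Ears2, which charges the tRNA for glutamate, was at 7.87, 8.63 and 7.46 CPM in WT and at 13.7, 11.4 and 11.4 CPM in Nr2e3-/- tumors (log2 fold change 0.60, SE 0.14, edgeR adjusted p = 0.11), with no overlap. DESeq2 gave an adjusted p of 0.0145, and edgeR without replicate 1 gave 0.0359. The summed level of the synthetases, unlike that of the members, was above WT in all 3 Nr2e3-/- libraries (459, 463 and 455 CPM against 412 to 427 CPM). The 11 genes of mitochondrial transcription and genome replication had a median of -0.02 with 0 at an unadjusted p under 0.05 in either direction, and the smallest p was that of Polg2, the accessory subunit of the mitochondrial DNA polymerase (-0.59, SE 0.31). Without Nr2e3-/- replicate 1 its log2 ratio was -0.94 (edgeR adjusted p = 0.0374), and without replicate 2 it was -0.36.

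Of 10 regulators known to act on such genes, 3 (30%) were higher and 1 (10%) lower at an unadjusted p under 0.05, beside 11.8% and 9.72% of all genes. Their median log2 fold change was 0.18, but they were split, with 6 positive and 4 negative, from -0.77 to 0.61. Sp1 had the smallest p, at 41.5, 43.9 and 44.6 CPM in WT and 48.9, 56.7 and 58.2 CPM in Nr2e3-/- tumors (log2 fold change 0.33, SE 0.11, edgeR adjusted p = 0.154, and 0.0191 without replicate 1). Another was Nrf1 (0.49, SE 0.20), whose factor reads the NRF1 core printed above. The others were Gabpb1 (0.44, SE 0.18), which encodes a subunit of GABP, and Ppargc1a (-0.71, SE 0.29), a coactivator of mitochondrial biogenesis. Nrf1 and Gabpb1 also passed after adjustment in the edgeR fit without replicate 1 and with limma-voom. These genes were named as those making up these counts, after their values were seen. Nrf1 was at 10.3, 9.24 and 10.3 CPM in WT and at 9.86, 16.5 and 15.3 CPM in Nr2e3-/- tumors. It was thus high in replicates 2 and 3, whereas the members' sum was high in replicates 1 and 3.

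The proteins encoded in the nucleus that join the products of the mitochondrial ribosome, and the ribosome of the cytosol, were described in the same way. The 71 nuclear genes of oxidative phosphorylation showed a median log2 fold change of 0.06, with 61 positive. At an unadjusted p under 0.05, 2 (2.82%) were higher and 0 lower, beside 11.8% and 9.72% of all genes. Ndufb2, a complex I subunit, was at 34.4, 34.1 and 33.9 CPM in WT and at 44.2, 37.1 and 40.9 CPM in Nr2e3-/- tumors. Their summed level was 8616 to 9389.9 CPM in WT and 9933, 7970.7 and 9882 CPM in Nr2e3-/- replicates 1 to 3. Among the Nr2e3-/- libraries replicate 2 was lowest, as for the members, but here it lay below every WT library. The 74 tested cytosolic ribosomal protein genes had a median of 0.17, with 11 (14.9%) higher and 0 lower. Stretches that they share with other loci were not measured, so their counts are uncertain, those of Rpl27a among them. Rpl27a was at 12.6, 10.3 and 10.7 CPM in WT and at 14.5, 18.2 and 17.5 CPM in Nr2e3-/- tumors. Its adjusted p was 0.117 from edgeR, 0.0165 from edgeR without replicate 1 and 0.0217 from DESeq2. Their summed level was 3109 to 3287 CPM in WT and 3297, 3885 and 3789 CPM in Nr2e3-/- replicates 1 to 3, so that replicate 2 was the highest there and among the WT libraries for the mitochondrial ribosome.

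**Figure D5:**
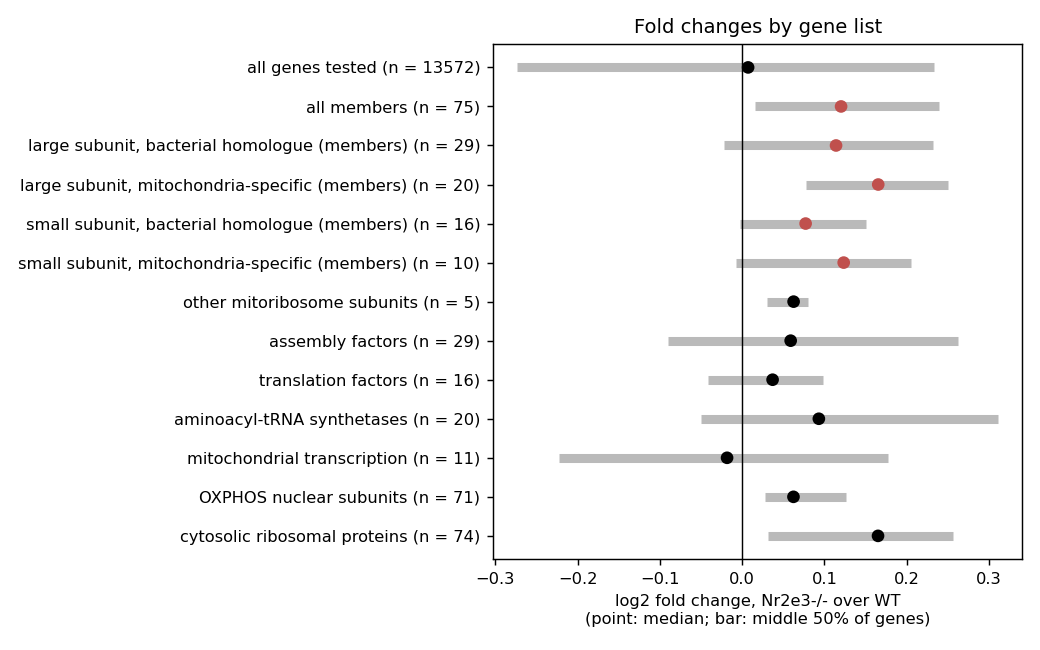
Median log2 fold change (points) and the middle 50% of genes (bars) for all genes tested, the members, their 4 classes and other gene lists, Nr2e3-/- over WT. The members' median is 0.12, all genes lie at 0.01, and cytosolic ribosomal protein genes at 0.17.

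For a single member, the smallest p that exact permutation of 3 against 3 libraries allows is 0.1. Scaling by library totals alone, an alternative added after the data were seen, moved the median of all genes to -0.10 and that of the members to 0.01, so 41 of the 75 members stayed positive and the gap to all genes remained.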

How the data were processed

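RNA-seq of 3 WT and 3 Nr2e3-/- liver tumors was analysed. The authors aligned single-end reads to mm10 (GRCm38) with TopHat and counted reads per gene with featureCounts, and the deposited values are raw counts per gene. A normalized table by the authors and their table of fold changes and p-values were not used. Counts were tested with edgeR 4.0.16 (R 4.3.3) using TMM, filterByExpr at its defaults (minimum count 10, minimum total 15), a quasi-likelihood F test and Benjamini-Hochberg adjustment over all genes tested, with a threshold of 0.05. Standard errors were derived from the F statistic. DESeq2 1.42.0 and limma-voom (limma 3.58.1) were alternatives, beside other scalings, filters, a replicate block and leaving out each library. Genes were named by rule: in each class the 3 highest and 3 lowest fold changes, the S18 paralogues, members that failed the filter, subunits the symbols miss (except Ict1), and the gene with the smallest p in each other list. Others are said to be named after their values were seen. Members and lists were chosen with earlier results of these data known. The fit was tested on simulated data. Symbols were matched to GENCODE vM21 for 23666 of 24061 count-table symbols. Intervals and floors cover counting error or the spread between libraries only.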

Additional observations from a re-analysis of the deposited data

How the results depend on the processing

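The members' median log2 fold change was above 0 under every alternative tried, from 0.0123 to 0.192, and exceeded the median of all genes in each. It was 0.0357 with upper quartile normalization and 0.0123 with library totals alone. At an unadjusted p under 0.05, 13 members were higher in the reported fit, 5 with upper quartile normalization, 3 with library totals alone, 22 with limma-voom (29.3%, against 18.8% of all genes) and 2 to 18 when a library was left out (2 without Nr2e3-/- replicate 3, 3 without WT replicate 3, 4 without WT replicate 1 or 2). Those shares were 2.63%, 4.0%, 5.26% and 5.33% for Nr2e3-/- replicate 3 and WT replicates 3, 1 and 2, against 6.75%, 6.67%, 8.44% and 6.96% of all genes. Without Nr2e3-/- replicate 1 it was 18.7% against 19.9%. 0 were lower in any of these. At an adjusted p under 0.05 there were 0 in the reported fit, 6 with limma-voom, and 0 to 8 when a library was left out (8 without Nr2e3-/- replicate 1). The 30 genes of the other lists at an unadjusted p under 0.05 became 12 with upper quartile normalization, 55 with limma-voom, 11 with library totals alone and 9 to 53 when a library was left out. Shares of all genes higher and lower were 8.12% and 13.1% with upper quartile normalization, 18.8% and 17.9% with limma-voom, and 7.01% and 15.4% with library totals alone. Same-numbered libraries were not shown to be paired: their deviations correlated at -0.077, 0.221 and 0.023. With the replicate block, 5 members (6.67%, against 8.97% of all genes) were higher and 0 lower at an unadjusted p under 0.05, 0 passed after adjustment, and 11 genes of the other lists were under 0.05.

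Of 532 combinations of 38 named genes with an alternative, 471 kept direction and side of the threshold, 27 newly passed it and 34 changed sign, in 13 genes, whose cause was not tested. With upper quartile normalization the log2 fold changes that changed sign were Aurkaip1 -0.0696, Chchd1 -0.0056, Dap3 -0.0512, Gadd45gip1 -0.0226, Mrpl53 -0.0595 and Mrps18c -0.0417, and with library totals alone -0.0937, -0.0287, -0.0782, -0.046, -0.0838 and -0.0669 in the same order. With limma-voom they were Dap3 -0.0265, Mrpl40 0.0019 and Mrpl53 -0.0121, and with at least 10 counts in every library Aurkaip1 -0.0022. Leaving out a library gave ranges across 0 for Aurkaip1 (-0.0052 to 0.0528), Chchd1 (-0.0187 to 0.2099), Dap3 (-0.0413 to 0.0879), Mrpl12 (-0.1639 to 0.008), Mrpl40 (-0.0559 to 0.0543), Mrpl41 (-0.146 to 0.0606), Mrpl53 (-0.0266 to 0.0926), Mrps16 (-0.1749 to 0.0546), Mrps34 (-0.0735 to 0.0456), Mrps35 (-0.1396 to 0.0218) and Mrps5 (-0.1392 to 0.0434).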

Other observations

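Every mitochondrial ribosomal protein made in the cytosol must be imported. A list of 25 protein import genes was chosen after the other results were seen. Its 24 tested genes had a median log2 ratio of 0.16, and 20 were positive. By edgeR, 2 of the 24 (8.33%) were higher with an unadjusted p under 0.05, and 0 were lower. Among all genes tested these shares were 11.8% and 9.72%, so higher genes were not more frequent in this list. Timm10, a small chaperone that guides carriers across the intermembrane space, was at 11.5, 12 and 11.8 CPM in WT and at 13.2, 15.2 and 19.5 CPM in Nr2e3-/- tumors (log2 fold change 0.44, standard error 0.16, adjusted p = 0.187 from edgeR). Without Nr2e3-/- replicate 1 it was 0.57 (adjusted p = 0.0315 from edgeR), without replicate 3 it was 0.28, and limma-voom gave an adjusted p of 0.0303. Every Nr2e3-/- library was above WT for it. The summed level of the list was 664 to 732 CPM in WT and 674 to 756 CPM in Nr2e3-/- tumors, so the groups overlapped.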
